A study of Mus musculus with 12 samples.

Results

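Transcript levels of 10 genes linked to bone morphogenetic protein (BMP) signalling were measured in fetal mouse kidneys kept in culture. The kidneys were either wild type or had activated beta-catenin. Beta-catenin is the nuclear effector of canonical Wnt signalling. The genes were the ligands Bmp2, Bmp4 and Bmp7, the homeobox transcription factors Msx1 and Msx2, the inhibitors of DNA binding Id1, Id2 and Id3, and the pathway inhibitors Smad6 and Bambi. A probe set was taken when the platform annotation gave it exactly 1 gene symbol and that symbol was one of the 10. This gave 15 of the 20380 probe sets with 1 symbol, covering all 10 genes of the 12393 measured, with 3 probe sets each for Bmp7 and Id2, 2 for Msx1 and 1 for each other gene.

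The study held 6 samples labelled beta-catenin activated and described as kidneys with tumors, and 6 samples labelled wild type and described as normal. All 12 were of the C57BL/6 strain, and all had the same tamoxifen exposure, injected into the peritoneum of the pregnant mother at 10.5 days post coitum (dpc), 2 mg per 40 g of body weight. The kidneys were dissected at 10.5 dpc and cultured for 3 to 4 days on membranes over a defined medium that held 5 µg/mL of transferrin, 5 µg/mL of insulin and 5 ng/mL of selenium. Neither the altered allele nor a Cre driver is named in the labels, and separate animals or cultures are not stated either, so the p-values measure the spread between these samples, which may be technical. The titles are numbered in 2 series, here the lower and the higher run, and each run has 3 activated and 3 wildtype arrays. Their meaning is not stated in the labels, so each comparison is given over all arrays and within each run. Activated and wildtype 1 to 3 are the lower run, and 4 to 6 the higher run.

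BMPs are secreted ligands that bind paired serine/threonine kinase receptors, which phosphorylate Smad1, Smad5 and Smad9, and these enter the nucleus with Smad4. Id genes and Msx genes are widely used readouts of this signal, and Smad6 and Bambi are induced by it and dampen it. In the developing kidney Bmp7 is made by the ureteric bud and the nephron progenitors and keeps the progenitors alive, Bmp4 is made by the mesenchyme around the ureter and limits where it buds, and Bmp2 inhibits branching in culture. In several mouse tissues Msx1, Msx2, Bmp4 and Id2 are also described as responsive to Wnt.

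Promoter sequence is shown for the members that passed the test in at least 1 comparison below and that matched the RefSeq promoter table of mouse build GRCm38.p6. Of the 10 members, 6 matched by symbol: Bmp4, Msx1, Msx2, Id2, Id3 and Smad6. The 250 bases before the annotated start of transcription are given 5′ to 3′ on the strand of the gene, which is the minus strand for all the genes shown. They lie at chr14:46390670-46390919 for Bmp4, chr13:53472781-53473030 for Msx2 and chr12:25096093-25096342 for Id2. Capitals mark GGCGCC, a GC-rich element described for Smad binding.
Bmp4: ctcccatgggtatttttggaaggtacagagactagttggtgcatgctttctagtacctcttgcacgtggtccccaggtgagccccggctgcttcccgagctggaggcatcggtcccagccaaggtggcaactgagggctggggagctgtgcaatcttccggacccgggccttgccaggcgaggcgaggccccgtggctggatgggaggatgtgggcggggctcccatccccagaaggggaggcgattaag
Msx2: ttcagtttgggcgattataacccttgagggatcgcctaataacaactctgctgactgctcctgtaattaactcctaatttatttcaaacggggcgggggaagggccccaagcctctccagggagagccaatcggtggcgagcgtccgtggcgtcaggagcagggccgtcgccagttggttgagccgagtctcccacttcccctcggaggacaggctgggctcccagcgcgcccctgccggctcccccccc
Id2: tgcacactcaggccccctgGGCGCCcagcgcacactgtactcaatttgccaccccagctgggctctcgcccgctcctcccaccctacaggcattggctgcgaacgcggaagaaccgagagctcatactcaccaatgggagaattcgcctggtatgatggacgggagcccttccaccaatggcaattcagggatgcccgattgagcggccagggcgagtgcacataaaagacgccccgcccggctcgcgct

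These windows were searched on both strands for CTTTGA, the core of the Tcf/Lef motif through which beta-catenin acts, and for GGCGCC, which do not overlap each other. CTTTGA was in 0 of the 6 member windows, against 13.8% of the 32851 windows of this length in the table. GGCGCC was in 1 of the 6, at 231 to 226 bases before the start of Id2, against 9.59% of all windows. The GC content was 63.2% for Bmp4, 61.6% for Msx2 and 62.8% for Id2, against a median of 52.4% over all windows. A match or its absence describes only these letters in this window.

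Values are given as log2(intensity + 16) after quantile normalisation, so a step of 1 is a doubling for a bright gene, and the change of a dim gene is understated. The highest of 27 bacterial control probe sets read 5.45 on this scale, and a probe set below it on an array was taken as not above background there. A gene was called when its adjusted p, from limma with Benjamini-Hochberg adjustment over 12393 genes, was under 0.05. The arrays separated first by run, with 24.7% of the variance on a component that lay between 17.0 and 22.9 in the higher run and between -27.1 and -15.0 in the lower run. Activated 2, activated 6 and wildtype 2 stood apart in the Gapdh control, where the log2 ratio of 5′ to 3′ signal, a measure of RNA or labelling quality, lay between -1.13 and 0.07, against -2.61 to -2.04 on the other 9 arrays. Ctnnb1, which encodes beta-catenin, lay between 12.85 and 13.00 in activated kidneys and between 12.86 and 13.12 in wildtype kidneys, with a difference of -0.05 (SE 0.06, adjusted p = 0.95). The labels do not say how beta-catenin was activated, so the level of its transcript does not check them.

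Within the lower run, Bmp2, Bmp4 and Msx2 were higher in activated kidneys and passed the test. These are 3 of the 10 members, all higher, where 0.331% of all 12393 genes were called higher and 0.597% were called in either direction. For 7 of the 10 members every activated array lay above every wildtype array, which held for 5.41% of all genes. The median log2 difference over the members was 0.96, against -0.03 over all genes. Within the higher run 0 members passed, where 0.00807% of all genes did, and by limma 0 had an unadjusted p under 0.05, against 6.36% of all genes. There the groups did not overlap for 2 members, Bmp2 and Bmp4, both higher, which held for 5.6% of all genes, and the median difference was 0.07, against 0.00 over all genes. RNA of a whole kidney culture was measured, so a larger share of cells that make a transcript and more transcript per cell cannot be told apart.

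**Figure D1:**
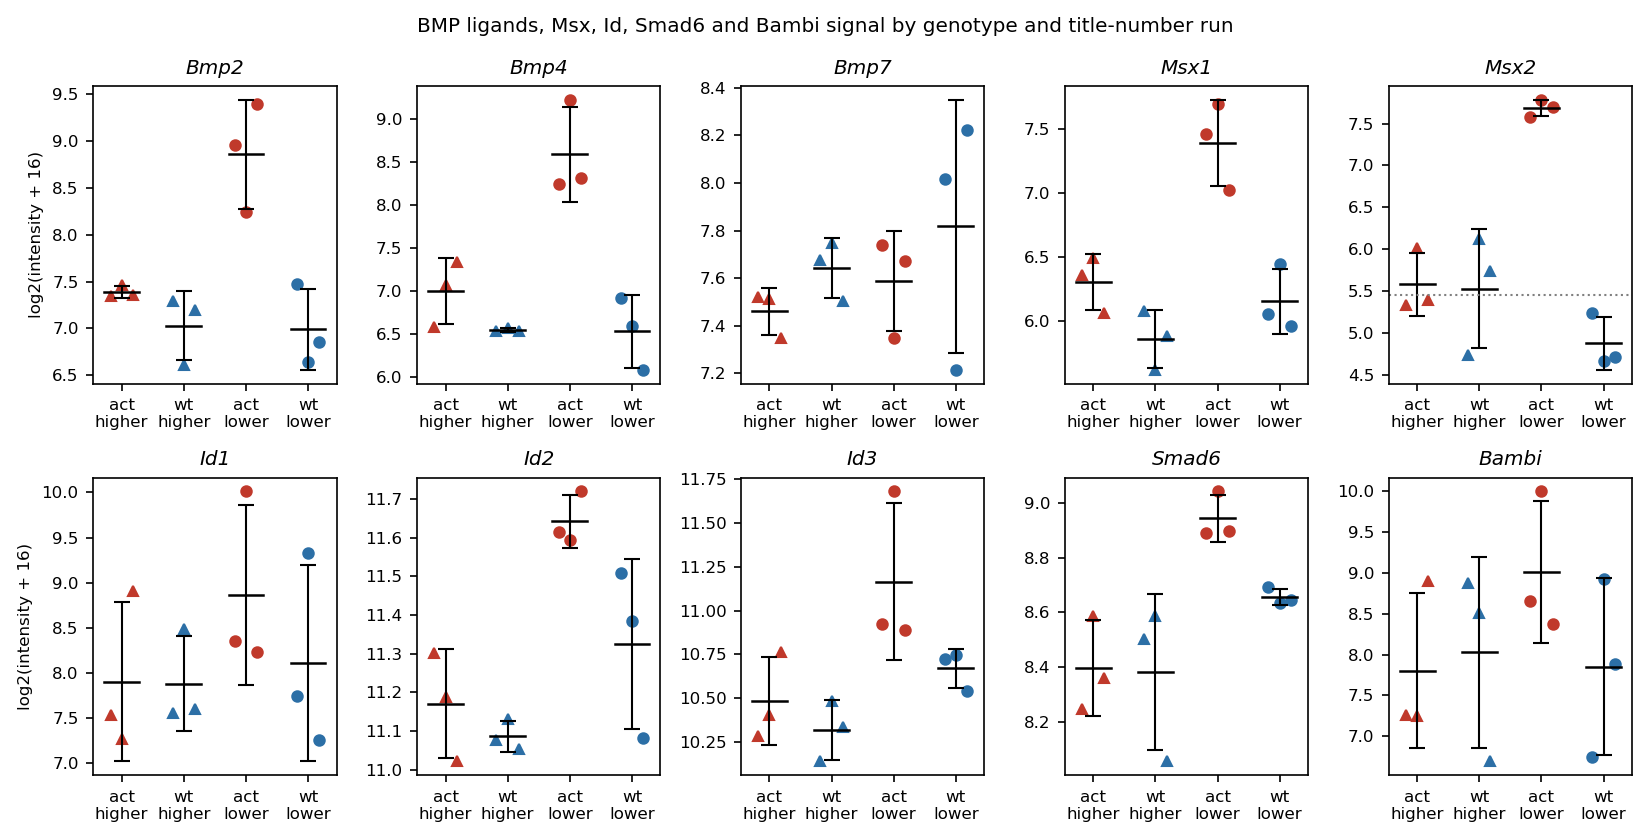
Signal of each of the 10 genes on each array, as log2(intensity + 16) after quantile normalisation, with activated (act, red) left of wildtype (wt, blue) in each run; points are arrays, lines the mean of 3 and bars the SD. The dotted line in the Msx2 panel is the highest bacterial control signal, 5.45. Bmp2, Bmp4, Msx1, Msx2, Id2, Id3 and Smad6 stand highest in the activated kidneys of the lower run, while Bmp7 does not. Id1 and Bambi have their highest group mean there, with overlap.

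Among the ligands, Bmp4 read 8.24, 9.23 and 8.31 in the activated kidneys of the lower run, against 6.93, 6.59 and 6.09 in the wildtype kidneys of that run. The lowest activated array lay above the highest wildtype array. The difference was 2.06 (SE 0.32, adjusted p = 0.0205), or 4.16-fold on this scale. Higher-run values of Bmp4 were 6.59, 7.07 and 7.34 in activated kidneys, against 6.54, 6.58 and 6.54 in wildtype kidneys. The groups again did not overlap, but by 0.01 between the closest arrays, and the difference of 0.45 (SE 0.22, 95% interval -0.05 to 0.95) had an adjusted p of 0.815. The wildtype mean differed little between the runs, at 6.55 ± 0.02 in the higher and 6.53 ± 0.42 in the lower run (SD, n = 3 each).

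Bmp2 read 8.95, 8.24 and 9.39 in the activated kidneys of the lower run, against 7.47, 6.64 and 6.85 in wildtype kidneys. The groups did not overlap, and the difference was 1.87 (SE 0.32, adjusted p = 0.0327), or 3.66-fold. The higher-run values were 7.34, 7.46 and 7.36 in activated kidneys, against 7.29, 6.60 and 7.20 in wildtype kidneys. All 3 activated arrays were above all 3 wildtype arrays, with a difference of 0.36 (SE 0.21, 95% interval -0.12 to 0.83, adjusted p = 0.86). The lower-run calls of Bmp2 and Bmp4 each rest on all but 1 of the arrays. Leaving out wildtype 1, wildtype 2, wildtype 3, activated 1 or activated 3 ended both calls, with adjusted p between 0.0553 and 0.192 for Bmp2 and between 0.0544 and 0.0994 for Bmp4, while both kept their direction. The Bmp2 call was also lost with the mean of all probe sets of each gene (adjusted p = 0.0517), with every probe set tested alone (0.0551) and without the variance trend (0.113), and the Bmp4 call without the variance trend (0.0772).

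Bmp7, the ligand that nephron progenitors need for survival, did not pass the test in any of the 6 comparisons. It read 7.74, 7.35 and 7.67 in the activated kidneys of the lower run, against 8.02, 7.21 and 8.22 in wildtype kidneys. In the higher run it read 7.52, 7.51 and 7.35 in activated kidneys, against 7.67, 7.75 and 7.50 in wildtype kidneys. The groups overlapped in both runs, and the difference was -0.18 (SE 0.15) in the higher run and -0.23 (SE 0.28) in the lower run. The other 2 probe sets of Bmp7 gave -0.39 and -0.26 in the lower run, neither past the threshold, and 1 of them was above the bacterial controls on only 6 of the 12 arrays. Bmp7 was the 1 member of the 10 with a lower mean in the activated kidneys of the lower run.

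Msx2 showed the largest difference of the 10 members in the lower run. It read 7.58, 7.79 and 7.70 in activated kidneys, against 5.24, 4.67 and 4.72 in wildtype kidneys. Each wildtype array of this run was below the highest bacterial control, so the fold is a bound: the signal was at least 4.71-fold higher in activated kidneys, with group means of 7.69 ± 0.10 and 4.87 ± 0.32 (SD, n = 3 each, adjusted p = 0.00156). The call held in each of the 16 alternatives that tested the gene, with adjusted p between 9.45e-05 and 0.0175. Msx2 in the higher run read 5.33, 6.01 and 5.39 in activated kidneys, against 4.74, 6.12 and 5.73 in wildtype kidneys. There 1 of 3 activated and 2 of 3 wildtype arrays were above the controls, the groups overlapped, and the difference was 0.05 (SE 0.37, 95% interval -0.78 to 0.88).

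Msx1, the close relative of Msx2, read 7.46, 7.69 and 7.02 in the activated kidneys of the lower run, against 6.06, 6.44 and 5.96 in wildtype kidneys. The groups did not overlap, and the difference of 1.24 (SE 0.27) did not pass, at an adjusted p of 0.115. It passed with a robust variance (0.0462), with array weights (0.0266) and with the spread pooled over the 4 groups (0.0167), over a range of 0.0167 to 0.775 among the alternatives. Its higher-run values were 6.36, 6.49 and 6.06 in activated kidneys, against 6.07, 5.62 and 5.88 in wildtype kidneys, a difference of 0.45 (SE 0.22, adjusted p = 0.823) with 1 pair of arrays out of order. The other Msx1 probe set was above the bacterial controls on 1 of the 12 arrays and gave -0.08 (SE 0.33) in the lower run, so the Msx1 result rests on a single probe set.

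The Id genes encode helix-loop-helix proteins without a DNA-binding region, which hold E proteins away from DNA. None of the 3 passed between genotypes. Id2 read 11.61, 11.59 and 11.72 in the activated kidneys of the lower run, against 11.51, 11.39 and 11.08 in wildtype kidneys, without overlap (difference 0.32, SE 0.12, adjusted p = 0.555). In the higher run it read 11.30, 11.19 and 11.02 in activated kidneys, against 11.08, 11.13 and 11.05 in wildtype kidneys, and the groups overlapped. The other Id2 probe sets gave differences of 0.54 and 0.35 in the lower run, in the same direction and not past the threshold.

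Id3 read 10.93, 11.68 and 10.89 in the activated kidneys of the lower run, against 10.72, 10.75 and 10.54 in wildtype kidneys. The groups did not overlap, with a difference of 0.50 (SE 0.20, adjusted p = 0.582), and activated 2 lay well above the other arrays. Id3 in the higher run read 10.28, 10.40 and 10.76 in activated kidneys, against 10.14, 10.48 and 10.33 in wildtype kidneys, a difference of 0.16 (SE 0.14).

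Id1 did not pass in either run and was highest on the arrays with the highest Gapdh control ratio. It read 8.35, 10.02 and 8.23 in the activated kidneys of the lower run, against 7.74, 9.33 and 7.25 in wildtype kidneys. The higher-run arrays read 7.53, 7.26 and 8.91 in activated kidneys, against 7.55, 8.49 and 7.60 in wildtype kidneys. The 3 highest arrays, activated 2, wildtype 2 and activated 6, were the 3 that stood apart in the Gapdh ratio. Over all 12 arrays the difference between genotypes was 0.39 (SE 0.43), and it was -0.04 with the run and the Gapdh ratio as terms of the model. For Bambi the same step took the difference to 0.05 from 0.47 (SE 0.49).

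**Figure D2:**
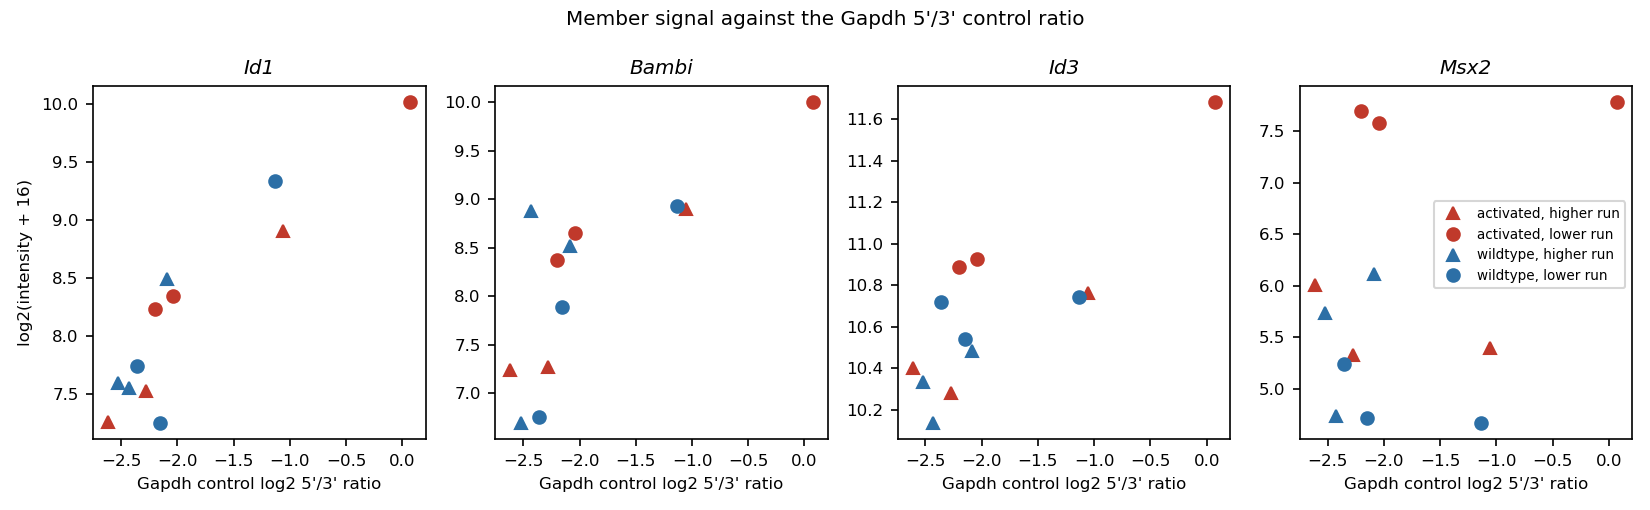
Signal of Id1, Bambi, Id3 and Msx2, as log2(intensity + 16), against the log2 5′/3′ ratio of the Gapdh control on the same array; red is activated, blue wildtype, triangles the higher run and circles the lower run. The highest Id1 arrays are those with the highest ratio, in both genotypes. For Msx2 every activated array of the lower run lies above every wildtype array of that run. Activated 2, with a ratio of 0.07, has no array near it, as the others lie between -2.61 and -1.06.

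Among the inhibitors, Smad6, which blocks the BMP receptors and Smad1 inside the cell, read 8.89, 9.04 and 8.90 in the activated kidneys of the lower run, against 8.69, 8.64 and 8.64 in wildtype kidneys. The groups did not overlap, and the difference was 0.29 (SE 0.15, adjusted p = 0.77). In the higher run it read 8.25, 8.59 and 8.36 in activated kidneys, against 8.50, 8.59 and 8.06 in wildtype kidneys, with a difference of 0.02 (SE 0.17). Bambi, a membrane protein that resembles a receptor without its kinase, read 8.655, 10.001 and 8.376 in the activated kidneys of the lower run, against 6.75, 8.92 and 7.88 in wildtype kidneys. Bambi in the higher run read 7.26, 7.24 and 8.90 in activated kidneys, against 8.87, 8.51 and 6.69 in wildtype kidneys. The groups overlapped in both runs and the arrays of one group differed by over 1 unit, so that the 95% interval of the lower-run difference, 1.16, ran from -0.04 to 2.36.

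Whether the genotype difference itself differed between the runs was tested as an interaction, taken as the higher run minus the lower run. Msx2 passed, with activated minus wildtype at 0.05 in the higher run and 2.81 in the lower run, a gap of -2.77 (SE 0.47, 95% interval -3.77 to -1.77, adjusted p = 0.0222). It was 1 of the 10 members, where 0.331% of all genes were called and 0.234% were called with a negative sign. The value includes arrays below the bacterial controls. Leaving out wildtype 2, wildtype 3, wildtype 5, wildtype 6, activated 1, activated 3, activated 4 or activated 6 took its adjusted p to between 0.0507 and 0.0821. Bmp4 (-1.61, SE 0.41, adjusted p = 0.16), Bmp2 (-1.52, SE 0.41, adjusted p = 0.2) and Msx1 (-0.79, SE 0.34, adjusted p = 0.75) had gaps of the same sign that did not pass. With array weights Bmp2 passed (-1.64, adjusted p = 0.0465). With the Gapdh ratio as a covariate, an alternative chosen after seeing the data, Bmp2 (adjusted p = 0.0224) and Bmp4 (0.0457) passed beside Msx2 (0.0119).

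Over all 12 arrays without regard to run, 0 of the 10 members passed, where 0.0242% of all genes did. By limma 4 members had an unadjusted p under 0.05, against 6.15% of all genes. These were Bmp4 with a difference of 1.25 (SE 0.35, adjusted p = 0.392), Bmp2 with 1.12 (SE 0.34, 0.476), Msx1 with 0.84 (SE 0.26, 0.531) and Msx2 (0.556). Msx2 averaged 6.63 in activated kidneys, with 4 of 6 arrays above the bacterial controls, and 5.20 in wildtype kidneys, with 2 of 6 above them. Its activated mean was 2.27-fold above the highest bacterial control. Both groups had arrays on each side of that control, so this is not a strict bound of the fold. With the run as a term the count stayed at 0, where 0.105% of all genes were called. With an interaction term beside it, which takes the gap between the runs out of the spread, the effect averaged over the runs passed for the same 4 genes, with adjusted p of 0.00688 for Bmp4 and Msx2, 0.0176 for Bmp2 and 0.0336 for Msx1. That average is of a large lower-run and a small higher-run difference. The share of all genes that this model called is not given here. Over the alternatives to the all-array fit, the count of all genes called lay between 0 and 104, against 3 in the main fit.

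**Figure D3:**
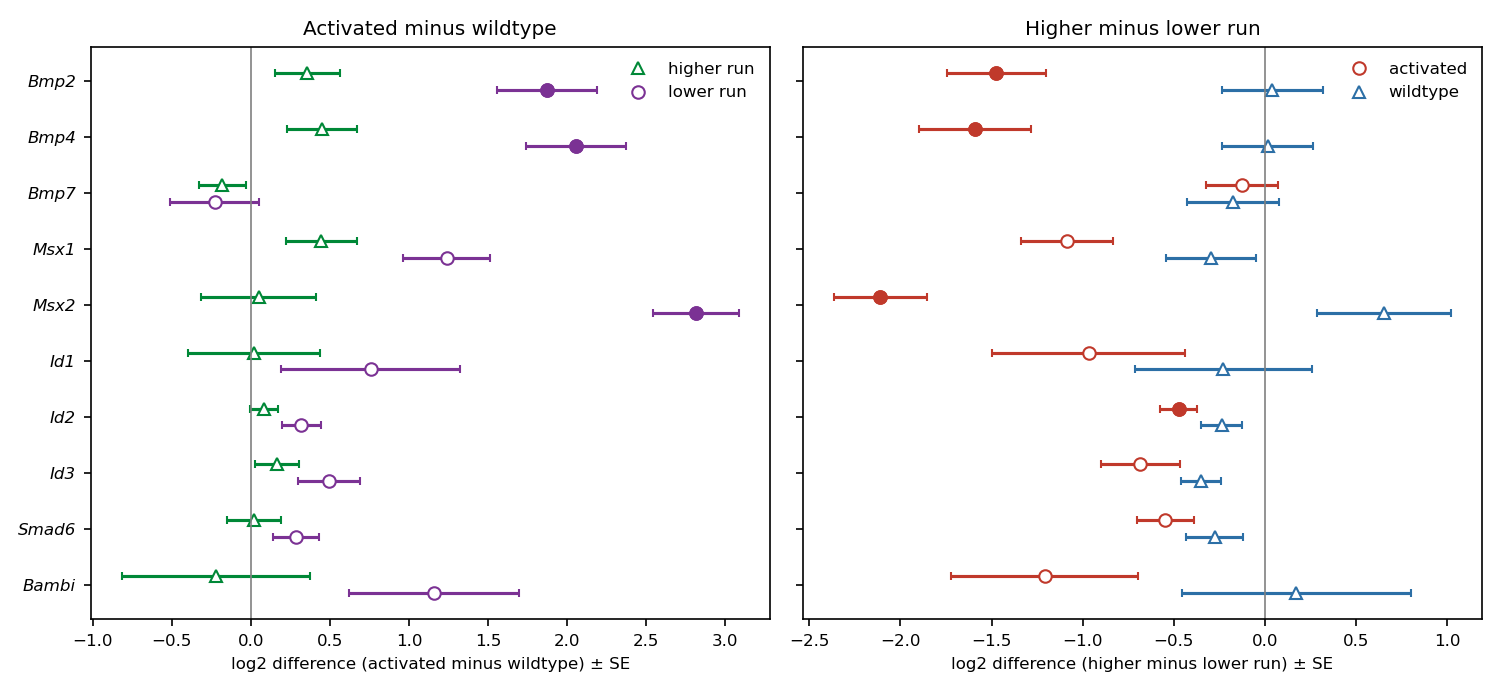
Log2 differences of the 10 genes with their standard error as bars, activated minus wildtype within each run (left) and higher minus lower run within each genotype (right); filled symbols are adjusted p under 0.05. On the left Bmp2, Bmp4 and Msx2 are filled in the lower run and none in the higher run; on the right Bmp2, Bmp4, Msx2 and Id2 are filled in activated kidneys and none in wildtype kidneys.

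Within the activated kidneys, 4 members were lower in the higher run than in the lower run and 0 were higher, where 2.78% of all genes were called and 0.799% were called lower. The difference was -1.48 (SE 0.27, adjusted p = 0.0242) for Bmp2, -1.59 (SE 0.31, adjusted p = 0.0289) for Bmp4, -2.11 (SE 0.26, adjusted p = 0.00326) for Msx2 and -0.47 (SE 0.10, adjusted p = 0.0431) for Id2. All 10 differences were negative, with a median of -1.03 against 0.00 over all genes, and for 7 members the runs did not overlap, which held in this direction for 8.72% of all genes. Msx1 was at -1.09 (SE 0.25, adjusted p = 0.0613) and passed in 4 alternatives, with adjusted p between 0.0178 and 0.0316. When every probe set was tested alone, the Id2 probe set used here was at an adjusted p of 0.0675, and the other 2 were at -0.66 (0.0361) and -0.70 (0.296). These are the same lower-run activated arrays as in the comparison of genotypes. Leaving out activated 1, activated 3, activated 4, activated 5 or activated 6 left Msx2 as the 1 member called. The Id2 call was also lost on the values as deposited (adjusted p = 0.102) and with arrays centred on their medians (0.423).

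Within the wildtype kidneys, 0 members differed between the runs by the same test, where 5.09% of all genes did. By limma 1 member, Id3, had an unadjusted p under 0.05, against 19.7% of all genes, with a difference of -0.35 (SE 0.11, adjusted p = 0.116). Id3 and Smad6 were lower on every higher-run array than on every lower-run array, which in this direction held for 12.9% of all genes. Bmp2 differed by 0.04 (SE 0.28) and Bmp4 by 0.02 (SE 0.25) between the runs in wildtype kidneys. Msx2 had the largest difference of the 10 members there, 0.655 (SE 0.367, adjusted p = 0.381). It was above the bacterial controls on 2 of 3 wildtype arrays in the higher run and 0 of 3 in the lower run.

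Around the members, the Wnt feedback readouts, genes that beta-catenin induces and that mostly restrain Wnt, were also further apart between the genotypes in the lower run. Of 10 measured of 12, 1 was called higher in activated kidneys in the higher run and 6 in the lower run. Among all genes 0.00807% were called in the higher run, in either direction, and 0.331% were called higher in the lower run. The median difference of the 10 readouts was 0.39 in the higher run and 2.67 in the lower run, against 0.00 and -0.03 over all genes. Apcdd1, a membrane inhibitor of Wnt, was the 1 called in each run, with a difference of 1.08 (SE 0.09, adjusted p = 0.00689) in the higher run and 2.90 (SE 0.17, adjusted p = 0.00021) in the lower run. Axin2 (1.78), Notum (2.89) and Dkk1 (2.80), inhibitors of Wnt at the destruction complex, at the ligand and at the co-receptor, were called in the lower run. So were the inhibitors Wif1 (mean 8.89 in activated and 4.69 in wildtype kidneys) and Nkd2 (mean 8.73 in activated and 5.19 in wildtype kidneys), whose wildtype means were below the bacterial controls. For 5 of the 10 the gap between the runs passed the interaction test, all negative, which held for 0.234% of all genes. This list was chosen with its earlier result known.

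Of the other BMP pathway lists, 1 gene was called between genotypes in either run. Of the other BMP and GDF ligands (10 measured of 13, of which 7 had a mean below the bacterial controls), 0 were called in either run, and the smallest lower-run adjusted p belonged to dim Bmp15 (0.863), Bmp6 (0.884) and Gdf2 (0.936). Of the receptors and co-receptors (8 of 11), 0 were called, with Acvr1, a type I receptor, at 0.33 (SE 0.18, adjusted p = 0.82) in the lower run, Acvrl1 at 0.46 (0.892) and Bmpr2, the type II receptor, at 0.34 (0.939). By limma 0 genes of these lists had an unadjusted p under 0.05 in the lower run, where 7.07% of all genes did. The median difference in the lower run was -0.04 for the ligands and 0.15 for the receptors.

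Of the Smads and their intracellular regulators (8 of 10), Tob1, an antiproliferative protein that represses Smad-driven transcription in mouse osteoblasts, was the 1 called in the lower run. It read 8.48, 8.38 and 8.64 in activated kidneys, against 9.34, 9.41 and 9.30 in wildtype kidneys, and so fell by 0.85 (SE 0.15, adjusted p = 0.0374), without overlap. Tob1 in the higher run differed by -0.18 (SE 0.11, adjusted p = 0.866), and the gap between the runs was 0.67 (adjusted p = 0.146). Smad7, the other inhibitory Smad, was at 0.48 (SE 0.20, adjusted p = 0.627) in the lower run, and Smad9 averaged 5.21 in activated and 4.31 in wildtype kidneys, below the controls, at an adjusted p of 0.196.

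Of the secreted antagonists and modulators (13 of 16), 0 were called between genotypes in either run, with 1 in the higher run and 3 in the lower run at an unadjusted p under 0.05 by limma. Over all genes 6.36% reached this in the higher run and 7.07% in the lower run. Fst, which encodes follistatin, averaged 6.11 in the activated kidneys of the lower run and 4.68 in wildtype kidneys (adjusted p = 0.306). Nbl1, a secreted BMP binder, averaged 5.99 in activated and 4.78 in wildtype kidneys (0.259). Chrd, which encodes chordin, averaged 5.19 in activated and 5.96 in wildtype kidneys (0.559). These signals are near the bacterial controls.

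Other transcription factors that BMP induces (13 of 14 measured, 8 with a mean below the bacterial controls) had 0 called in either run, with 1 in the higher run and 6 in the lower run at an unadjusted p under 0.05 by limma. The shares over all genes were 6.36% in the higher run and 7.07% in the lower run. In the lower run 11 of the 13 had a positive difference, with a median of 0.48 against -0.03 over all genes, and in the higher run 5 of 13 did, with a median of -0.03. Hey1, a repressor also downstream of Notch, read 9.03, 8.99 and 9.12 in the activated kidneys of the lower run, against 8.48, 8.20 and 8.36 in wildtype kidneys (difference 0.70, SE 0.16, adjusted p = 0.115). Dlx5 averaged 5.92 in activated and 4.47 in wildtype kidneys, below the controls (0.115), and Tbx3 was at 0.62 (SE 0.20, 0.403). Among the 3 E proteins, Tcf12 (0.32) and Tcf4 (0.43) did not pass in the lower run, at adjusted p of 0.436 and 0.463, and Tcf3 was at -0.23 (0.953).

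**Figure D4:**
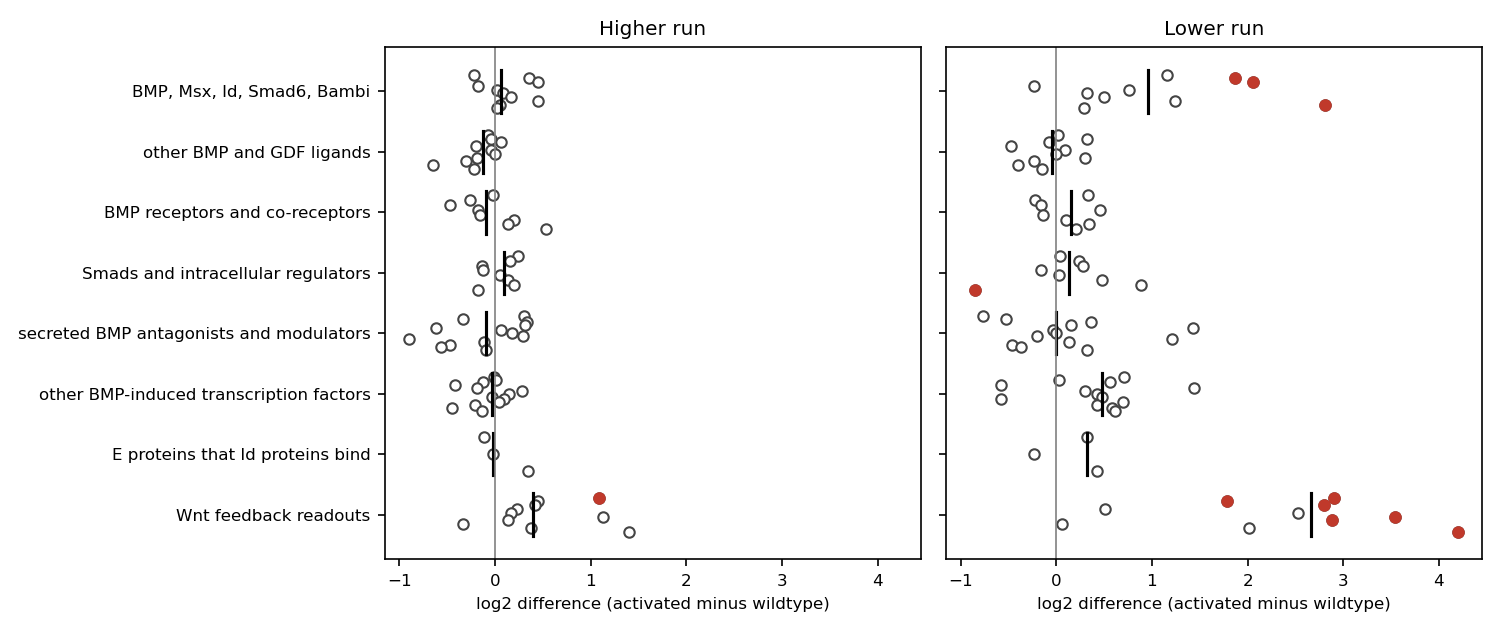
Log2 difference, activated minus wildtype, of each measured gene of the members and of 7 lists, in the higher run (left) and the lower run (right); filled points are adjusted p under 0.05 and vertical bars the list median. The members and the Wnt feedback readouts have medians of 0.96 and 2.67 in the lower run, while the ligand, receptor and antagonist lists centre near 0.

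Levels of marker lists for kidney cell types are given here as summed log2 levels. Nephron progenitor markers summed to 9.08 to 9.54 in the activated kidneys of the lower run, against 11.14 to 11.26 in wildtype kidneys, with 3 of 7 called lower and Eya1 below the bacterial controls in the activated kidneys. In the higher run they summed to 10.528 to 10.998 in activated kidneys, against 10.94 to 11.20 in wildtype kidneys, with 0 of 7 called. Stromal markers summed to 12.36 to 12.49 in the activated kidneys of the lower run, against 13.06 to 13.11 in wildtype kidneys, with 4 of 7 called lower, and to 12.81 to 12.92 in activated and 12.67 to 12.86 in wildtype kidneys of the higher run. Ureteric bud markers, of which Ret, Wnt9b and Gfra1 were below the controls, summed to 10.67 to 10.98 in activated and 11.59 to 11.82 in wildtype kidneys of the lower run, with 1 of 5 called lower. Their sum was also lower without overlap in the higher run, at 10.74 to 11.21 in activated and 11.41 to 11.58 in wildtype kidneys, with 0 of 5 called. This sum follows the brightest genes and not the whole list. Of the 5 differences, 3 were positive in the lower run (median 0.04) and 2 in the higher run (median -0.13). Early nephron markers summed to 9.84 to 10.43 in activated and 9.51 to 9.71 in wildtype kidneys of the lower run, and to 9.39 to 9.51 in activated and 9.71 to 9.80 in wildtype kidneys of the higher run. The list did not move together in the lower run, where 3 of its 6 differences were positive, with a median of -0.085. In the higher run 1 of 6 was positive, with a median of -0.25. Proximal tubule markers summed to 6.06 to 7.19 in activated and 6.75 to 7.27 in wildtype kidneys of the lower run, and to 7.01 to 7.93 in activated and 8.03 to 8.54 in wildtype kidneys of the higher run. Of these 5 genes, 5 were below the bacterial controls in activated and 4 in wildtype kidneys of the lower run. In the higher run 2 were below them in activated and 0 in wildtype kidneys. Of these last 2 lists 0 genes were called between genotypes in either run, and Fgf8 was below the controls in all 4 sets of arrays. The part of these markers in the differences of Bmp2, Bmp4 and Msx2 was not tested.

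Between the runs, smooth muscle and ureteric mesenchyme markers summed to 12.20 to 12.80 in the higher run and 11.05 to 11.46 in the lower run, and macrophage markers to 10.39 to 10.97 in the higher run and 9.29 to 10.27 in the lower run. In the lower run Myh11, Cnn1 and C1qa were below the bacterial controls in both genotypes, and Cd68 in activated kidneys. Erythroid markers (3 of 5 measured) summed to 10.36 to 11.52 in the higher run and 13.21 to 13.38 in the lower run. Hba-a1 and Alas2 were below the controls, so this sum rests mostly on 1 gene. For higher minus lower run, 2 of the 3 differences were positive in activated kidneys (median 0.06) and 1 in wildtype kidneys (median -0.53). The part of these smooth muscle, macrophage and erythroid markers in the run differences of the members was not tested. Of the skeletal muscle markers, Myod1, Myog and Myh3 were below the bacterial controls in all 4 sets of arrays. In each set 4 or 5 of the 6 were below them, and 0 of 6 were called between genotypes in either run. Endothelial markers had 0 of 7 called and neuronal markers 1 of 4 called lower in the lower run. In that run 0.597% of all genes were called in either direction.

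Genes whose signal followed each member most closely over the 12 arrays were sought among the 8560 genes with a mean above the bacterial controls. The measure was Pearson's r, and the 12 points share genotype and run, so it describes these arrays only. Bmp2 was closest to Mark1 (0.956), Trps1 (0.955) and Tnfrsf19 (0.953). Bmp4 was closest to Pdzrn3 (0.953), Frzb (0.952) and Notum (0.95). Msx1 was closest to Csrp2 (0.948), Armh4 (0.917) and Mmp11 (0.916), and Msx2 to Tent5c (0.949), Unc5b (0.943) and Tfap2c (0.936). These partners of the ligands and Msx genes include Frzb, a secreted Wnt antagonist, and Notum, an enzyme that inactivates Wnt. Whether Wnt genes are more frequent among such partners than among all genes was not tested.

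For the Id genes, Id1 was closest to Gipc1 (0.952), Gemin7 (0.951) and Bsg (0.95), Id2 to Epha7 (0.972), Gata2 (0.925) and Tex9 (0.924), and Id3 to Hikeshi (0.954), Acot7 (0.931) and Psmb5 (0.928). Smad6 was closest to Hsp90b1 (0.93), Fkbp5 (0.884) and Odc1 (0.865), Bambi to Dpagt1 (0.918), Utp18 (0.888) and Nenf (0.882), and Bmp7 to Rasgrp2 (0.915), Cdyl (0.902) and Rab40b (0.873). Gata2, a partner of Id2, is itself on the list of BMP-induced factors. Among the members, Bmp4 had r of 0.895 with Msx2, 0.894 with Msx1 and 0.816 with Bmp2, and Id1 had r of 0.801 with Id3 and 0.79 with Bambi.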

How the data were processed

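Trizol RNA of 12 samples, 6 activated and 6 wildtype, was put on Affymetrix 3′ arrays, per the labels' protocols; a dye entry in the labels was not used. The authors deposited 1 linear intensity per array for each of 22690 probe sets, made with software not named in the labels. The deposited intensities had been scaled, since their means without the top and bottom 2% agree across arrays (250.099 to 250.126). Detection calls were not used here, and the number of arrays limits the precision.

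Quantile normalisation of log2(intensity + 16) was to be used if array quartiles differed by over 0.1; they differed by up to 0.29. Probe sets with several symbols (691), none listed (1555) or controls (64) were left out, and a gene was read from its probe set with the highest mean. Genotypes and runs were compared with limma 3.58.1 (lmFit, eBayes with a variance trend) in R 4.3.3, two-sided. The effect was fitted over all arrays, in each run, between the runs in each genotype and as an interaction. Where the lower group mean lay below the highest bacterial control of all arrays, the mean of the higher group was set against that control. The fits were tested on simulated data. Figures were drawn with matplotlib 3.10.9.

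The members, gene lists and tests were chosen with earlier results of these data known. Named genes were the members, every list gene past the threshold in any comparison, up to 3 per list with the smallest adjusted p in the lower run, Ctnnb1, and the 3 genes most like each member. Alternatives were the scaling, pseudocounts of 1 and 64, removal of the dimmest 40% of genes, the choice of probe set, variance settings, array weights, the run, Gapdh ratio or Y-linked signal as terms, and leaving out each array.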

Additional observations from a re-analysis of the deposited data

Results flagged for a closer look

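Smad6 in wildtype 6 stood apart from the other 5 wildtype arrays. It read 8.06, and its gap to the nearest of the other 5, wildtype 4, was 0.703 of the whole range of the 6. The array belongs to the higher run, where Smad6 was lower than on every lower-run wildtype array, and the group spans both runs. Chance alone picks out about 5% of such groups.

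The effect of activation on Msx2 differed between the runs by -2.77 on the log2 scale (SE 0.47, adjusted p = 0.0222). It was 0.05 in the higher run and 2.81 in the lower run, and the wildtype arrays of the lower run were below the bacterial controls. No other member passed this test in the same fit.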

How the results depend on the processing

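No paired analysis was possible because the labels give the groups no shared replicate numbers. No member's difference that passed the threshold turned its sign under any alternative. The count of members past the threshold over all 12 arrays was 0, and it became 1 (Bmp2) with the run and the Gapdh ratio as terms and 4 with the effect averaged over the runs. In the lower run the count of 3 became 1 (Msx2) without the variance trend and lay between 1 and 3 when 1 array was left out, and it was 4, with Msx1, under a robust variance, array weights or a pooled spread. The interaction count of 1 became 0 with a pseudocount of 1 (Msx2 at -3.63, adjusted p = 0.0669), 0 with the dimmest 40% of genes removed, a filter that removes Msx2, 2 with array weights (Msx2 and Bmp2) and 3 with the Gapdh ratio as a covariate, the last chosen after seeing the data. It lay between 0 and 1 when 1 array was left out. Between the runs in activated kidneys the count of 4 became 1 (Msx2) without the variance trend, lay between 1 and 4 when 1 array was left out, and was 5, with Msx1, under a robust variance, array weights or a pooled spread. The counts of 0 in the higher run and between the runs in wildtype kidneys stayed at 0 in all 17 alternatives. The cause of these changes was not tested, apart from the filter.

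Counts over all genes moved more: 3 over all arrays against 0 to 104 in the alternatives, 74 in the lower run against 30 to 188, 1 in the higher run against 0 to 3, 41 for the interaction against 16 to 95, 631 between the runs in wildtype kidneys against 226 to 757, and 345 in activated kidneys against 90 to 803. Signal near the bacterial controls limits Msx2 in wildtype kidneys, the second Msx1 probe set and many genes of the pathway lists, and 3 arrays a group limit each within-run comparison.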

Other observations

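Some genes of the BMP pathway lists differed between the runs, as did many genes outside them. Over all genes 5.09% were called between the runs in wildtype kidneys and 2.78% in activated kidneys. Crim1, a membrane protein that binds BMPs, read 8.56, 8.99 and 8.45 in activated kidneys of the higher run, against 7.69, 7.11 and 7.75 in those of the lower run, a difference of 1.15 (SE 0.23, adjusted p = 0.0347). In wildtype kidneys it read 8.53, 8.21 and 8.34 in the higher run, against 7.50, 6.94 and 7.65 in the lower run, a difference of 1.00 (SE 0.20, adjusted p = 0.0264). The runs did not overlap in either genotype.

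In wildtype kidneys the higher run also stood above the lower run for Gdf10, a TGF-beta family ligand (1.09, SE 0.25, adjusted p = 0.0396), the type I receptor Acvr1 (0.61, SE 0.14, 0.0374), Smad1 (0.45, SE 0.10, 0.0291), Id4 (0.57, SE 0.12, 0.0271) and the dim Nbl1 (mean 5.97 in the higher and 4.78 in the lower run, 0.0496). In activated kidneys Hey1 (-1.23, SE 0.16, adjusted p = 0.00539), Tcf12 (-0.67, SE 0.09, 0.00711) and the dim Dlx5 (mean 4.46 in the higher and 5.92 in the lower run, 0.0271) were lower in the higher run, and Tob1 (0.94, SE 0.14, 0.00888) was higher. Of the Wnt feedback readouts 7 were called lower in the higher run of activated kidneys, Sp5 (-1.79, adjusted p = 0.023) beside the 6 called between genotypes in the lower run. In this direction 0.799% of all genes were called.

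Y-linked and Xist signal varied within the groups. Wildtype 2, wildtype 5 and activated 6 had Y-linked means of 4.24 to 4.48 and Xist at 11.52 to 11.91, activated 4 had both, at 7.54 and 10.90, and the other 8 arrays had Xist at 6.08 or less.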
